A study of Mus musculus with 8 samples.

Results

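A set of 130 genes, of 17362 measured, was higher after forskolin in the beta cells of mouse islets of both genotypes studied. The members were chosen by their measured values. In the beta cell columns, a gene was a member when its value after forskolin exceeded the untreated value by at least 1.5-fold on the log2(CP10K + 1) scale in wild type and again in mutant nuclei. CP10K is the number of counts of a gene per 10000 counts of the same column. These conditions were met by 136 genes, from which 6 were left out by name (*Dgkg*, *Gnas*, *Hgsnat*, *Gsdma*, *Ubr4* and *Ttr*). *Peak1* and *Hap1*, also excluded by name, were below the threshold in the mutant. The beta cell forskolin values are therefore a description of how the genes were picked and carry no test.

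The nuclei came from hand-picked islets of wild type (WT) mice and of mice with the Med14 S983A substitution as a whole-body knock-in, so that every islet cell of the mutant carries it. Islets of each genotype were cultured with no agent (CON), with forskolin (FSK) or, at 10 nM for 16 h, with Exendin-4 (Ex-4), which gives 6 conditions. The study's text gives 16 h for FSK in islets, and the sources used here do not give its dose in islets. About 100 islets contributed to a condition, their nuclei were sorted on DNA content stain, and each condition filled 8 wells of the first barcoding plate. The 8 sublibraries each hold all 6 conditions and do not replicate any of them. The table holds 1 pooled value for each condition in each of 9 cell types, so no test could be run, and treatment cannot be told apart from islet preparation or well. Beta cell columns held 1915006 to 3094377 counts, alpha cell columns 269394 to 810127, delta cell columns 362410 to 631433 and endothelial columns 55536 to 159305. Intervals in parentheses are exact Poisson 95% intervals and cover counting error only.

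Forskolin activates adenylyl cyclase directly, and the cAMP made by that enzyme releases the catalytic subunits of protein kinase A (PKA) from their regulatory subunits. PKA phosphorylates CREB, a factor that binds the cAMP response element (CRE) of its target genes, and many other proteins. In beta cells cAMP amplifies insulin secretion and supports survival and growth signalling, and it is the main second messenger of the GLP-1 receptor, which Ex-4 engages. Med14 is the scaffold subunit of Mediator, which connects transcription factors with RNA polymerase II, and S983 is a serine that PKA can phosphorylate.

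Cell labels were compared with marker genes. The 10 beta cell markers summed to between 44.6 and 63.0 CP10K in the beta cell columns, against 12.3 to 33.7 in alpha, 5.71 to 12.7 in delta and 2.34 to 11.9 in endothelial columns. The 8 alpha cell markers summed to between 49 and 140 CP10K in alpha columns and to at most 9.18 elsewhere, and the 10 endothelial markers to between 82.3 and 163 in endothelial columns and to at most 0.525 elsewhere. The 5 delta cell markers summed to between 4.36 and 9.73 CP10K in delta columns, at most 0.593 elsewhere, with *Lepr* at 0 in all 6 delta columns. No member is on any of these marker lists. Acinar markers were not analysed here. In beta cells 390 of 10093 kept genes (3.86%) were lower and 149 (1.48%) higher in mutant CON than in WT CON. WT Ex-4 had 220 genes lower and 95 higher than WT CON, and 4 lower and 2 higher than mutant CON. Whether this reflects genotype or the untreated WT preparation cannot be told apart. The main member counts and medians that rest on untreated WT nuclei are also given below with the untreated mutant in their place.

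To show what lies in front of these genes, the promoters of 129 members were read from GRCm39 with GENCODE M39, from 250 bases before to 50 bases after the annotated start. The palindromic CRE, TGACGTCA, was present in 4 members, or 3.10%, and in 334 of 9892 promoters of all kept beta cell genes, or 3.38%. The sites that lie before the start are shown for 3 members, with the CRE in capitals. *Pcsk1* encodes a convertase of prohormones, *Errfi1* a feedback inhibitor of the EGF receptor and *Camk2d* a calcium and calmodulin dependent kinase.
Pcsk1, chr13:75237878-75237925, plus strand, CRE beginning 47 bases before the start: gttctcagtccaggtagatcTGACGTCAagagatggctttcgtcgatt
Errfi1, chr4:150939456-150939503, plus strand, CRE beginning 46 bases before the start: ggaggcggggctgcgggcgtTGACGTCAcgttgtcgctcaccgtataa
Camk2d, chr3:126389863-126389910, plus strand, CRE beginning 69 bases before the start: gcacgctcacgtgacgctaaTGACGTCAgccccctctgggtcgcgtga
The fourth member with this motif, *Clstn2*, has it across the annotated start. The short form of the CRE, TGACG on either strand, which the palindrome contains, was found in 28 members (21.7%) and in 30.9% of all these promoters. Of the 20 members with the largest differences and the members listed as CREB targets, only *Rasgef1b* and *Irs2* had it. Their sites are shown with the short form in capitals.
Irs2, chr8:11059561-11059605, minus strand, beginning 86 bases before the start: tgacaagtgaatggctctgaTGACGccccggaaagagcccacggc
Rasgef1b, chr5:99400876-99400920, minus strand, beginning 114 bases before the start: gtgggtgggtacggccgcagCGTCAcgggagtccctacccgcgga
The AP-1 motif, TGAGTCA or its complement TGACTCA, was in 6 members (4.65%) and in 3.43% of all these promoters. A match is a stretch of letters and not a measured binding site, and distal elements were not examined.

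The members spanned long stretches of the genome. The median annotated length was 138 kb for members (quartiles 65.5 and 296 kb) and 35.7 kb for all kept genes (quartiles 17.1 and 80.2 kb). Members made up 0.0842% of the kept genes shorter than 10 kb and 7.02% of those of 300 kb or more. Differences moved with length beyond the members too: the median mutant FSK difference over all kept genes ran from -0.12 in the shortest class to 0.33 in the longest, and that in WT from -0.06 to 0.01. The part of length in the choice of members was not tested. *Igf1r*, the member with the largest smaller difference, covers chr7:67601518-67883416, and *Pde10a* covers chr17:8744204-9205482. Of the 129 members with a position, 107 (82.9%) overlap another annotated gene, compared with 82.1% of all kept genes, and the sources used here do not say whether counting used strand. Members *Lncpint* and *2210408F21Rik* overlap each other on opposite strands, as do *Wars* and *Wdr25*, with shared stretches of 756 and 632 bases, whose reads could be assigned only by strand. *Wipi1* and *Prkar1a* lie 10640 bases apart on opposite strands.

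In beta cells 153 of 10093 kept genes (1.52%) were higher after FSK in WT, 517 (5.12%) in the mutant and 136 (1.35%) in both. A gene was kept when its mean over the 6 columns of a cell type reached the 40th percentile of genes with any count, and all 130 members passed. Member differences ran from 0.59 to 1.86 in WT with a median of 0.86, and from 0.59 to 2.53 in the mutant with a median of 1.22. On linear CP10K values the median ratio of FSK to CON was 2.61 in WT and 3.8 in the mutant. For each of the 130 members both FSK columns lay above all 4 CON and Ex-4 columns, and in neither genotype did the counting intervals of FSK and CON overlap. The rule fixes much of this, since it uses 4 of the 6 columns. Neither the order of columns nor the overlap of intervals was counted over all kept genes, so both only describe the members. Just inside the threshold were *Hdac4* (0.59 in WT and 0.59 in the mutant), *Cpeb4* (0.59 and 1.00) and *Btbd7* (0.59 and 0.85). Just outside it were *Slc39a11* (0.61 and 0.58), *Anxa4* (0.58 and 0.97) and *Etv1* (0.71 and 0.58).

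**Figure D1:**
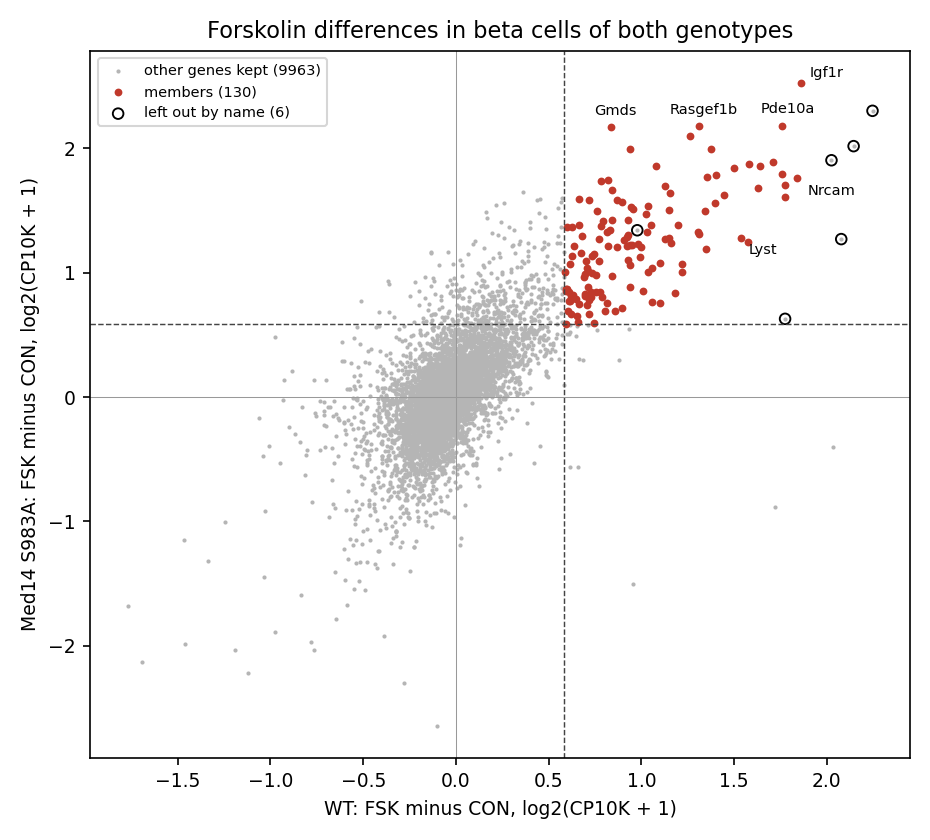
Each point is a gene kept in beta cells, with the FSK minus CON difference in log2(CP10K + 1) in WT on the x axis and in the Med14 S983A mutant on the y axis. Dashed lines mark the 1.5-fold threshold, and the 130 members (red) fill the upper right corner with 6 genes left out by name (open circles).

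Growth factor and insulin signalling formed a group of 12 members, among which the receptor *Igf1r* had the largest differences. *Igf1r* encodes the receptor of insulin-like growth factors, whose signalling protects beta cells. Its level was 12.6 CP10K in WT CON, 48.4 with FSK and 8.80 with Ex-4, and 7.80, 49.7 and 8.42 in the same order in the mutant. Both FSK columns were more than 3 times higher than any other column, with differences of 1.86 in WT and 2.53 in the mutant. *Irs2*, the insulin receptor substrate that links insulin and IGF receptors to PI 3-kinase and a textbook CREB target of beta cells, was at 0.621 CP10K (0.535 to 0.716) in WT CON and 1.64 (1.5 to 1.79) with FSK. In the mutant the values were 0.732 (0.616 to 0.864) and 1.89 (1.72 to 2.07), and after Ex-4 *Irs2* was at 0.711 in WT and 0.590 in the mutant. The 4 CON and Ex-4 columns of *Irs2* lay close together and both FSK columns above them. Downstream of these receptors were *Pik3r1*, a regulatory subunit of PI 3-kinase (0.69 in WT and 0.97 in the mutant), *Pik3c2g*, a class II PI 3-kinase (0.61 and 0.77), *Dapp1*, an adaptor for its lipid products (1.03 and 1.00), and *Inpp5f*, a phosphoinositide phosphatase (0.82 and 1.21). *Castor2*, a regulator of mTORC1, had differences of 0.79 and 0.80. Other receptors were *Egfr* (0.63 and 1.22), with its inhibitor *Errfi1* (0.92 and 1.22), the Wnt5a receptor *Ror2* (0.78 and 1.74) and the interleukin-1 receptor *Il1r1* (0.93 and 1.43). *Pappa2*, a secreted protease that cuts IGF-binding proteins, was among the 20 largest (1.30 and 1.33). On a list of 45 genes of insulin, IGF and growth factor signalling, 42 were kept, 9 were members, and 9 were higher after FSK in WT and 16 in the mutant. On the same list *Insrr*, the insulin receptor-related receptor, was lower in both genotypes.

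The cAMP pathway itself contributed its breakdown and its brake. *Pde10a* and *Pde1c* encode phosphodiesterases, which hydrolyse cyclic nucleotides. *Pde10a* was the most abundant member in both FSK columns, at 30.9 CP10K in WT CON, 107 with FSK and 26.5 with Ex-4, and 22.5, 106 and 24.7 in the mutant. *Pde1c* was at 3.55, 10.6 and 3.31 CP10K in WT and at 3.02, 8.18 and 3.27 in the mutant. *Prkar1a*, the regulatory subunit that holds PKA inactive, was at 1.03 CP10K (0.915 to 1.15) in WT CON and 2.67 (2.49 to 2.86) with FSK, and at 1.4 (1.24 to 1.57) and 2.87 (2.66 to 3.10) in the mutant. Its 2 FSK columns were the highest of the 6, and WT CON was the lowest. The list of 43 genes of cAMP production, breakdown and PKA had 34 genes kept, of which these 3 were members. On it 3 genes were higher after FSK in WT and 10 in the mutant, with 1 and 2 lower. Of 35 listed CREB factors and CREB-induced genes, 27 were kept and 2, *Irs2* and *Dusp10*, were members, with 3 higher after FSK in WT and 6 in the mutant. *Dusp10*, a phosphatase that inactivates stress-activated MAP kinases, was at 0.803 CP10K in WT CON and 3.75 with FSK, and at 0.561 and 3.60 in the mutant.

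Calcium and G protein signalling added *Rgs17*, which turns off G protein alpha subunits (1.4 in WT and 1.78 in the mutant), *Rasgef1b*, an exchange factor of small GTPases (1.31 and 2.18), *Camk2d* (0.84 and 0.98), the protein kinase C gene *Prkcb* (0.76 and 1.5), the G protein subunit *Gng12* (0.82 and 1.74) and the GABA-B receptor subunit *Gabbr2* (0.95 and 1.51). *Arhgap26.1*, a second row of the table for the GTPase activating protein gene *Arhgap26*, had differences of 1.58 and 1.87. The row named *Arhgap26* was not a member, and *Arhgap26.1* could not be matched to a position. Of the 18 members in this class, cAMP genes included, 15 had the larger difference in the mutant, as had 104 of all 130 members. This was not counted over all kept genes, of which 153 were past the threshold after FSK in WT and 517 in the mutant.

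**Figure D2:**
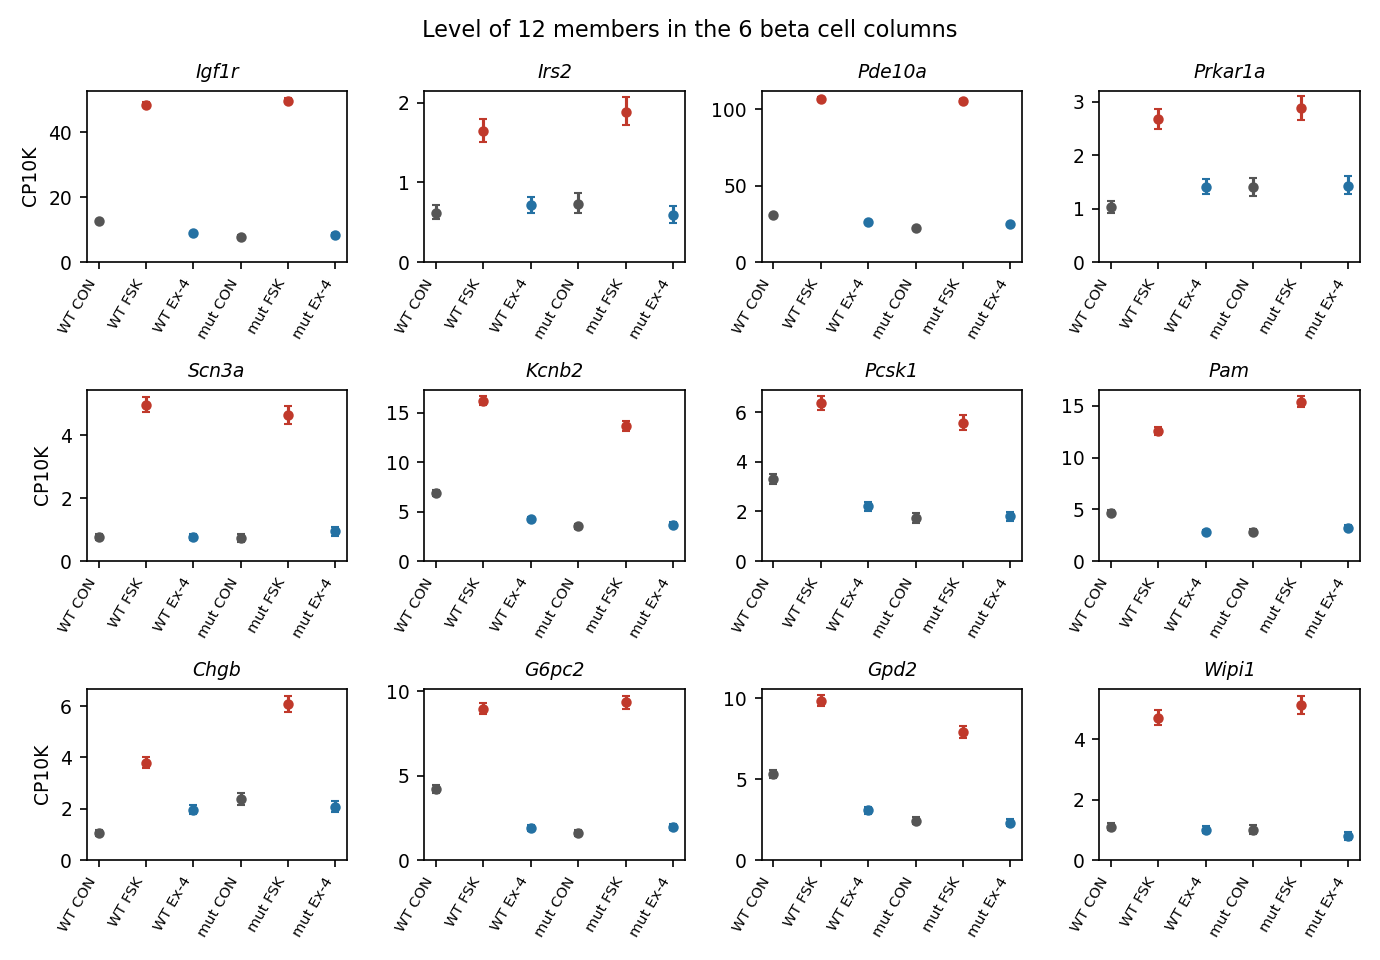
Level of 12 members in CP10K (y axis, from 0) in the 6 beta cell columns, with exact Poisson 95% intervals that cover counting error only. In every panel the FSK columns (red) are the highest, *Igf1r* reaching 48.4 and 49.7 CP10K, while WT CON is above mutant CON for *G6pc2* and below it for *Chgb*.

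Several members act in hormone processing and dense core granules. *Pcsk1* cuts proinsulin and other prohormones, *Cpe* trims the cut ends, *Pam* amidates peptides, *Scg5* is a chaperone of the other convertase, and *Chgb* is a granin of the granule core. *Pcsk1* was at 3.32 CP10K in WT CON, 6.38 with FSK and 2.20 with Ex-4, and at 1.73, 5.58 and 1.80 in the mutant. *Pam* was at 4.68, 12.6 and 2.78 CP10K in WT and at 2.83, 15.4 and 3.24 in the mutant. *Cpe* was at 8.16, 14.9 and 6.27 CP10K in WT and at 5.01, 15 and 4.79 in the mutant. These 3 genes shared an order in which untreated WT lay between the FSK columns and the remaining columns. *Chgb* went the other way at baseline: it was at 1.06 CP10K (0.943 to 1.18) in WT CON and 2.37 (2.16 to 2.60) in mutant CON, and at 3.79 and 6.09 after FSK. *Scg5* had differences of 0.63 and 1.14. *Sorl1*, a sorting receptor, had 0.94 and 1.53, and *Ap3b2*, a subunit of a vesicle adaptor, 0.75 and 0.60. Of 31 listed genes of prohormone processing and granules, 29 were kept and 7 were members, with 8 higher after FSK in WT and 14 in the mutant. No other list had as large a WT median over its kept genes (0.40, with 0.39 in the mutant), the median of all kept genes being -0.06 in WT and -0.02 in the mutant.

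Traffic to the membrane and to lysosomes followed. *Mctp1*, a calcium-binding C2 domain protein, was at 1.29 CP10K in WT CON and 6.75 with FSK, and at 0.914 and 5.63 in the mutant. *Exoc6b*, a subunit of the exocyst that tethers secretory vesicles, had differences of 0.74 and 1.14, and the endosomal syntaxin *Stx12* 0.66 and 0.74. Of 52 listed genes of vesicle tethering and exocytosis, 45 were kept and these 3 were members. *Wipi1*, an autophagy protein that binds phosphoinositides (1.44 and 1.62), *Lyst*, a regulator of lysosome-related organelles (1.53 and 1.28), and *Rnf152*, a lysosomal ubiquitin ligase (1.34 and 1.5), were the 3 members among 34 kept genes of lysosome and autophagy. *Rnf152* was barely detected without FSK, at 0.103 CP10K or 31 counts in WT CON and 0.0675 or 13 counts in mutant CON, and was at 1.80 and 2.01 after FSK. *Ern1*, the IRE1 sensor of unfolded protein in the ER (0.82 and 1.33), and *Wars*, a tRNA synthetase (0.73 and 0.85), were the 2 members among 56 kept genes of ER folding and transport.

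Ion channels made up the largest number of members on any list, 11 of 41 kept genes, and all 11 genes of the list past the threshold in WT were members. Among all kept genes, 136 of the 153 past the threshold in WT were past it in both genotypes, so this is not particular to channels. *Scn3a*, a voltage-gated sodium channel, was at 0.750 CP10K (0.656 to 0.855) in WT CON, 4.98 (4.73 to 5.23) with FSK and 0.765 with Ex-4, and at 0.732, 4.65 and 0.945 in the mutant. Its 4 columns without FSK spanned 0.732 to 0.945. Potassium channels were the most numerous: *Kcnb2*, a delayed rectifier that ends the beta cell action potential (1.13 in WT and 1.70 in the mutant), *Kcnj6*, opened by G proteins (1.31 and 1.31), *Kcnh1* (0.89 and 1.57), and the calcium-activated *Kcnma1* (0.66 and 1.60) and *Kcnn2* (0.80 and 0.69). *Kcnb2* was at 6.86 CP10K in WT CON, 16.2 with FSK and 4.23 with Ex-4, and at 3.5, 13.6 and 3.66 in the mutant. Cation entry was represented by *Trpc1* (0.70 and 1.10), by *Nalf1*, an auxiliary factor of the NALCN leak channel (0.83 and 1.35), by the glutamate receptor *Gria3* (0.71 and 0.82) and by the mitochondrial calcium uniporter *Mcu* (0.71 and 1.01). *Ttyh1*, of an anion channel family, had 0.92 and 1.29. The listed gene *Itpr1*, which encodes a calcium release channel of the ER, was lower in both genotypes. Outside the list were, among others, the ascorbate transporter *Slc23a2* (1.5 and 1.84) and the pyrophosphate exporter *Ank* (1.35 and 1.77).

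Metabolic members included *G6pc2*, the islet glucose-6-phosphatase that opposes glucokinase. It was at 4.20 CP10K in WT CON, 8.97 with FSK and 1.90 with Ex-4, and at 1.59, 9.34 and 1.94 in the mutant. The FSK columns of both genotypes were close, whereas untreated WT was above untreated mutant by more than the counting intervals (3.97 to 4.44 and 1.42 to 1.78). *Gpd2*, of the glycerol phosphate shuttle, was at 5.3 and 9.84 CP10K in WT CON and FSK and at 2.43 and 7.89 in the mutant. *Fh1*, the fumarate hydratase of the citric acid cycle, had differences of 0.73 and 1.00, and the creatine transporter *Slc16a12* 0.75 and 0.98. These were the 4 members among 36 kept genes of glucose and mitochondrial metabolism, where *Mlxipl*, which encodes the glucose-responsive factor ChREBP, was lower in both genotypes. Of 33 kept genes of cholesterol and lipid supply 2 were members, among them the lysosomal membrane protein *Scarb2* (0.94 and 1.22). *Tmtc1*, which transfers mannose to cadherins, was among the 20 largest (1.37 and 1.99).

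Adhesion, synaptic and matrix proteins were the largest class, with 22 members. Classes were assigned to members alone, so class sizes have no share over all kept genes beside them. *Nrcam*, a neuronal adhesion molecule, was at 0.983 CP10K in WT CON and 6.09 with FSK, and at 0.566 and 4.30 in the mutant. The synaptic scaffold *Dlg2* was at 2.04 and 8.49 CP10K in WT and at 2.04 and 10.0 in the mutant. Cytoskeletal members numbered 11, led by *Epb41l4a* (1.63 and 1.68). *Herc4*, a ubiquitin ligase (1.71 and 1.89), was the leading gene of 4 in protein turnover. Transcription, chromatin or RNA-binding proteins are encoded by 6 members. *St18*, a zinc finger factor of beta cells, was the 1 member among 26 kept beta cell transcription factors (1.03 and 1.33). On that list 1 gene was higher after FSK in WT and 10 in the mutant. The 9 noncoding RNA genes were led by *Morrbid*, at 0.292 CP10K (0.234 to 0.360) in WT CON and 3.42 (3.22 to 3.63) with FSK, and at 0.327 and 3.05 in the mutant. In all, 46 members were on at least 1 of the 11 lists and 84 were on none. The 2 members with the fewest counts in untreated WT, named here after their values were seen, were *Klhl1* and *Plat*, with 2 counts each. After FSK they were at 0.885 CP10K (0.784 to 0.997) and 0.533 (0.455 to 0.621) in WT.

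The other contrasts of the beta cell columns share columns with the rule, so their values are set side by side. Between the FSK columns the median of mutant minus WT was -0.05, 0 members were higher and 2, *Dlgap2* (-0.65) and *4933432K03Rik* (-0.76), were lower in the mutant, as were 0.109% of all kept genes, with 0.0297% higher. Between the untreated columns the median was -0.33, with 111 members below and 19 above WT. There 24 of the 130 members, or 18.5%, were lower by the threshold, where 3.86% of all kept genes were, and 1, *Chgb*, was higher. The lower members included *Igf1r* (-0.63), *G6pc2* (-1.0), *Kcnb2* (-0.81), *Pcsk1* (-0.66) and *Ror2*. After Ex-4 in WT 13 members were lower (10.0% of members, 2.18% of all kept genes) and 0 were higher, with a median of -0.22. *G6pc2* (-0.84), *Kcnb2* (-0.59) and *Pam* (-0.59) were among the lower ones, while *Chgb* was at 0.53. Set against the untreated mutant, WT Ex-4 had 0 members lower and 0 higher, and the median was 0.081. The lower calls and the sign thus differed with the untreated column used as control. The comparison with the untreated mutant mixes genotype with treatment, and the cause of the lower values was not tested. After Ex-4 in the mutant 0 members were higher and 0 lower, where 0.0396% and 0.00991% of all kept genes were, and the median was 0.03. The contrasts between genotypes use 2 columns of the rule each and the Ex-4 contrasts 1 each. The untreated WT column enters both contrasts in which over 10 members were lower. The mutant difference after FSK was the larger for 104 of 130 members, and in 111 of 130 untreated mutant nuclei had the lower level. Among all 10093 kept genes, untreated mutant nuclei had the lower level in 5041. The threshold was passed after FSK by 153 kept genes in WT and 517 in the mutant. Differences after FSK were above 0 for 28.4% of all kept genes in WT and 44.5% in the mutant. How many of all kept genes had the larger difference in the mutant was not counted. The rule uses the columns behind both member counts, so they carry no test. Set against the untreated mutant in place of untreated WT, WT FSK was past the threshold for 129 of the 130 members. Both of these columns belong to the rule, so this count is a description and carries no test. Whether the response differed between genotypes could not be tested.

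**Figure D3:**
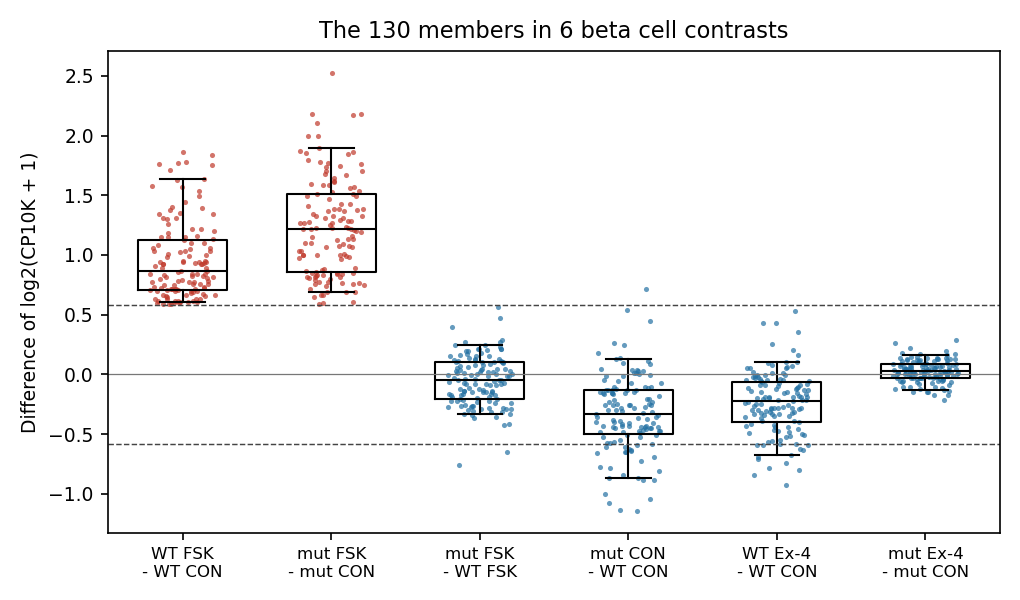
Differences of log2(CP10K + 1) of the 130 members (points) in 6 contrasts of beta cell columns, with boxes for quartiles, a line for the median and whiskers from the 5th to the 95th percentile. Medians are 0.86 and 1.22 for FSK against CON, which chose the members (red), and -0.05, -0.33, -0.22 and 0.03 for the other contrasts (blue).

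The columns of other cell types were not used to choose the members, though they come from the same islets and wells. In alpha cells, which secrete glucagon, 127 members were kept. Of these 27 (21.3%) were higher after FSK in WT, 44 (34.6%) in the mutant and 22 (17.3%) in both, whereas among all 9487 kept genes the shares were 1.34%, 3.13% and 0.864%. In WT 2 members were lower (1.57%, with 1.17% of all kept genes), and in the mutant 0 (0.885% of all kept genes). The members had a median difference of 0.20 in WT, where all kept genes had -0.04, and of 0.38 in the mutant, where all kept genes had 0.02. With no filter the number in both was 22 of 130. Signs were above 0 in both genotypes for 81 members (63.8%) and for 24% of all kept genes. With the untreated mutant in place of untreated WT, 41 members (32.3%) and 2.69% of all kept genes were higher in both. Both differences then share the mutant CON column, and the one of WT FSK mixes genotype with treatment.

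The 5 members with the largest smaller difference in alpha cells were *Pde10a*, *Pde1c*, *Dlg2*, *Igf1r* and *Dusp10*. *Pde10a* was at 9.95 CP10K (9.01 to 10.9) in WT CON and 79.4 (76.1 to 82.9) with FSK, and at 7.47 (6.88 to 8.09) and 74.0 (72.1 to 75.9) in the mutant, with 8.13 and 7.39 after Ex-4. Its differences, 2.88 in WT and 3.15 in the mutant, were above those in beta cells (1.76 and 2.18). *Pde1c* was at 3.55 and 13.6 CP10K in WT and at 2.46 and 15.6 in the mutant. *Dlg2* was at 21.8 and 62.8 CP10K in WT and at 6.26 and 62.7 in the mutant, a baseline far apart between genotypes with matching FSK columns. *Irs2* was at 0.453 (0.273 to 0.708) and 2.71 (2.12 to 3.41) in WT and at 0.592 and 2.51 in the mutant, so its alpha cell differences (1.35 and 1.14) exceeded those in beta cells (0.70 and 0.74). *Gria3* (0.87 and 1.55) was also higher in both genotypes.

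Other leading beta cell genes were not higher in alpha cells. *Scn3a* was at 3.86 CP10K in WT CON and 2.30 with FSK, and at 2.14 and 1.83 in the mutant. *Kcnb2* was at 7.82 and 4.68 CP10K in WT and at 3.48 and 4.42 in the mutant, lower in WT by the threshold (-0.64) and 0.27 in the mutant. *Wipi1* (0.00 and -0.01), *Mctp1* (0.21 and 0.22), *Pcsk1* (0.20 and 0.11) and *G6pc2* (0.33 and 0.28) stayed below the threshold. None of the 16 members of hormone processing and secretory traffic was higher in both genotypes of alpha cells, while 6 of 18 in cAMP, calcium and G protein signalling and 4 of 12 in growth factor signalling were.

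In delta cells, which secrete somatostatin, 126 members were kept. Of these 39 (31.0%) were higher after FSK in WT, 53 (42.1%) in the mutant and 34 (27.0%) in both, and the shares among all 9256 kept genes were 2.44%, 5.47% and 1.89%. In WT 5 members were lower (3.97%, with 2.33% of all kept genes), and in the mutant 1 was (0.794%, with 2.44% of all kept genes). Members had medians of 0.16 in WT and 0.46 in the mutant, where all kept genes had -0.03 and 0.00. With no filter the number in both was 34 of 130. Against the untreated mutant the WT median was 0.50, and 49 members (38.9%) and 4.76% of all kept genes were higher in both, again with the mutant CON column shared.

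*Rnf152*, the lysosomal ubiquitin ligase, had the largest delta cell difference, with 14 counts or 0.386 CP10K (0.211 to 0.648) in WT CON and 8.09 (7.26 to 8.99) with FSK, and 0.177 (0.0847 to 0.325) and 6.11 (5.52 to 6.75) in the mutant. Its differences were 2.71 and 2.60, against 1.34 and 1.5 in beta cells. *Igf1r* was at 3.67 CP10K in WT CON, 21.8 with FSK and 3.22 with Ex-4, and at 3.57, 24.2 and 3.94 in the mutant. The 4 columns without FSK were alike and both FSK columns stood far above them. *Pde10a* was at 37.6 and 139 CP10K in WT and at 31.2 and 139 in the mutant. *Arhgap26.1* (2.00 and 2.19) and *Pam* (1.55 and 2.65) completed the 5 largest. *Sorl1* (1.59 and 1.02), *Cpe* (0.76 and 1.21), *Ern1* (1.43 and 1.5), *Wipi1* (0.72 and 0.84), *Mcu* (0.92 and 1.45), *Kcnj6* (0.59 and 0.88) and *Irs2* (1.4 and 0.97) were higher in both genotypes as well. In this cell type 6 of the 16 members of hormone processing and secretory traffic were higher in both, against 0 of 16 in alpha cells, a contrast that was not tested. *Pcsk1* was not among them (-0.17 and 0.03). *Kcnb2* was at 19.9 CP10K in WT CON and 8.58 with FSK, and at 7.24 and 6.08 in the mutant. *Prkar1a* was at 1.02 in WT and 0.41 in the mutant as differences.

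Calls in alpha and delta cells overlapped in 10 members, which were 45.5% of the 22 alpha cell calls and 29.4% of the 34 delta cell calls. These 10, named after their values were seen, were *Igf1r*, *Pde10a*, *Arhgap26.1*, *Dusp10*, *Diras2*, *Septin9*, *Gmds*, *Gm379*, *Irs2* and *Pik3c2g*. *Septin9*, a cytoskeletal GTP-binding protein, had differences of 1.10 and 1.08 in beta, 1.16 and 1.39 in alpha and 1.65 and 1.29 in delta cells. A further 12 members were called in alpha and not delta cells, 24 in delta and not alpha cells, and 84 (64.6%) in neither. Of the 8608 other genes kept in both cell types, 57 were called in alpha cells, 124 in delta cells and 13 in both, or 22.8% of the alpha and 10.5% of the delta cell calls. The difference in overlap was not tested. Among the 20 members largest in beta cells, 9 were called in neither, including *Nrcam*, *Mctp1*, *Herc4* and *Scn3a*.

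**Figure D4:**
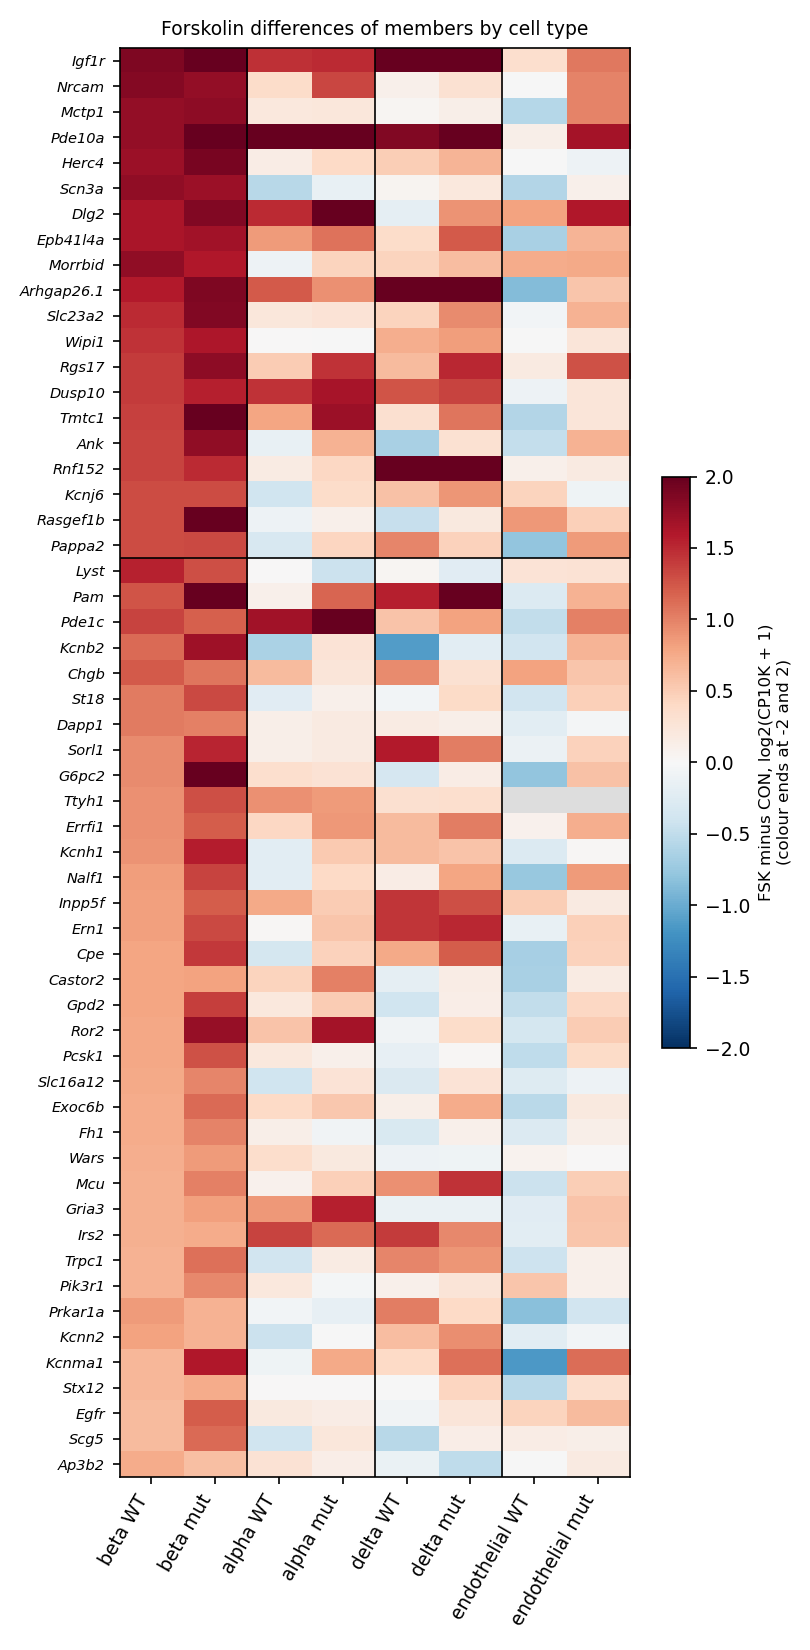
FSK minus CON difference in log2(CP10K + 1) as colour, for the 20 members largest in beta cells (above the line) and further members on a list other than that of cholesterol and lipid supply (below it), in WT and mutant columns of 4 cell types. Grey cells did not pass the filter, and colours end at -2 and 2. *Pde10a*, *Igf1r* and *Dusp10* are red in beta, alpha and delta columns, while *Scn3a* and *Kcnb2* pass the threshold in both genotypes in no cell type shown but beta.

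Beta cell markers were followed beside the members in the alpha and delta cell columns. In alpha cells the 10 beta cell markers summed to 33.7 CP10K in WT CON and 17.3 with FSK, and to 15.3 and 12.3 in the mutant, while the members summed to 394 and 597 in WT and to 221 and 553 in the mutant. In delta cells the markers summed to 12.7 and 5.71 CP10K in WT and to 9.43 and 7.41 in the mutant, and the members to 449 and 715 in WT and to 280 and 671 in the mutant. In beta cells themselves these markers were also lower after FSK, at 63.0 and 48.6 CP10K in WT and at 47.0 and 44.6 in the mutant. Markers of the cell type itself were higher after FSK, from 119 to 140 CP10K in WT and from 50.2 to 114 in the mutant for the alpha markers in alpha cells, and from 5.38 to 9.73 and from 4.36 to 7.68 for the delta markers in delta cells. Alpha markers in beta cells were at 7.44 and 9.17 CP10K in WT and at 4.89 and 7.72 in the mutant. The part of these markers in the member values was not tested.

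Endothelial cells of the islet capillaries were the non-endocrine type followed. Of 123 members kept, 5 were higher after FSK in WT (4.07%), 27 in the mutant (22.0%) and 2 in both, against 3.83%, 3.98% and 0.484% of all 8060 kept genes. The median member difference was -0.22 in WT, where 23 members were lower (18.7%, with 5.98% of all kept genes), and 0.29 in the mutant, where 0 were lower (2.85% of all kept genes). The WT FSK column held 62177 counts and WT CON 122420, where 1 count is worth 0.161 and 0.0817 CP10K. Counting intervals of FSK and CON were apart for 1 member with a higher and 3 with a lower value in WT, and for 22 and 0 in the mutant. The mutant columns were deeper, with 144461 counts in FSK and 159305 in CON. Intervals apart were not counted over all kept genes, so these numbers have no share beside them. The 2 members higher in both were *Dlg2*, with 5 and 9 counts in WT, and *Morrbid*. *Morrbid* was at 10.5 CP10K (8.72 to 12.4) in WT CON and 18.2 (15 to 21.9) with FSK, and at 7.41 (6.13 to 8.87) and 13.2 (11.3 to 15.2) in the mutant, above its level in beta cells in all these columns. *Chgb*, *Rasgef1b* and *Neat1* followed, each with overlapping intervals of FSK and CON in WT. *Pde10a* was at 9.07 and 9.97 CP10K in WT and at 4.90 and 17.7 in the mutant, and *Igf1r* at 4.25 and 5.63 in WT and at 2.76 and 6.78 in the mutant. The members as a sum were at 267 and 243 CP10K in WT and at 184 and 295 in the mutant. Beta cell markers in the endothelial columns summed to 9.88 CP10K in WT CON, 3.22 with FSK, 7.47 in mutant CON and 5.61 in mutant FSK. They were lower after FSK in both genotypes.

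**Figure D5:**
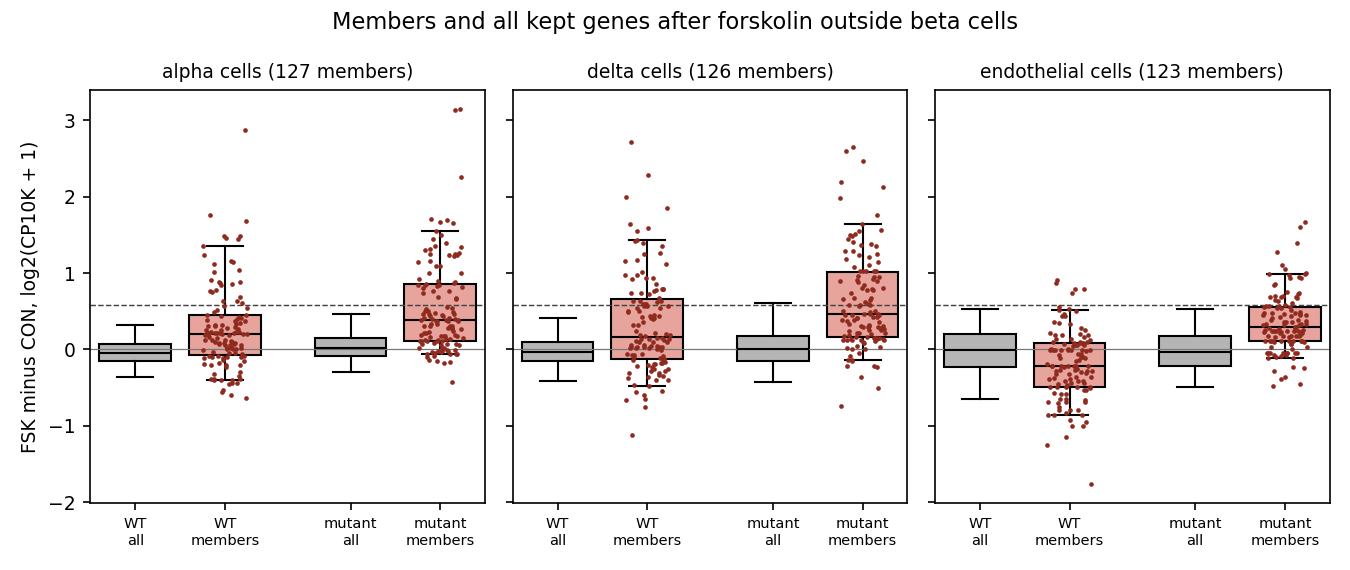
FSK minus CON difference in log2(CP10K + 1) of all kept genes (grey boxes) and of the members kept in each cell type (red boxes and points), for WT and mutant, with boxes for quartiles and whiskers from the 5th to the 95th percentile. The member medians are 0.20 and 0.38 in alpha, 0.16 and 0.46 in delta and -0.22 and 0.29 in endothelial cells, and the dashed line is the 1.5-fold threshold.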

How the data were processed

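Single nucleus RNA-seq was run on islets of 6 conditions. Per the study's methods, the authors aligned reads to mm39, filtered nuclei on counts, genes and mitochondrial share, normalized counts, integrated samples, annotated cell types and drew equal numbers of nuclei per sample. The deposited values are natural log values, ln(1 + 10000 × count / column total), 1 for each condition and cell type, as computed by the authors. The sources used here do not give the gene annotation or say whether pooled counts were raw. Column totals were recovered as the number that makes every value a whole count (100% within 0.001, totals 1522 to 3094377). No column was left unmapped.

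Differences between columns, divided by ln 2, are on the log2(CP10K + 1) scale, which understates changes of low genes. Genes at or above the 40th percentile of mean value were kept, and calls were made at 1.5-fold on this scale. With 1 value per condition no test was run, and the 8 samples, which mix all conditions, were assigned to no group. The members, gene lists and class names were chosen with earlier results of these data known. Genes named are the 20 members with the largest smaller difference, members on a list, the 5 largest in each cell type followed, those at the threshold, markers, and a few of each function class named to illustrate it after their values were seen. Lists were those named in the report, and some members are not reported here by name. Positions and sequences came from GRCm39 (GENCODE M39), matched by symbol. The rule was tested on simulated counts. Alternatives were 2 pseudocounts, a 2-fold threshold, 2 filters, centring, rescaling, the excluded genes put back and, after seeing the data, another control. Software was matplotlib 3.10.9, scipy 1.17.1, pandas 2.3.3 and numpy 2.4.6 under Python 3.11.15.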

Additional observations from a re-analysis of the deposited data

Results flagged for a closer look

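*Col27a1*, a collagen gene, was a member in beta cells (1.10 in WT and 0.76 in the mutant) and had the opposite direction in delta cells in both genotypes, at -0.66 in WT and -0.75 in the mutant. It was at 1.13 CP10K (0.812 to 1.53) in WT CON and 0.351 (0.196 to 0.579) in WT FSK, and at 1.71 (1.39 to 2.09) and 0.618 (0.439 to 0.844) in the mutant, with 1.53 and 1.54 after Ex-4. Both FSK columns were below the other 4. In alpha cells its differences were 0.01 and -0.02. It was singled out because the effects of FSK in 2 cell types had opposite signs in both genotypes, and the difference between cell types was not tested.

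The median member difference after FSK in endothelial cells was -0.22 in WT and 0.29 in the mutant, of opposite sign. With the untreated mutant in place of untreated WT the WT value was -0.0588. This difference between genotypes was not tested, and the WT FSK column held 62177 counts.

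PP cells, which make pancreatic polypeptide, were outside the comparisons and had 38625 to 127727 counts a column. There 34 of 117 kept members (29.1%) were higher after FSK in both genotypes, as were 156 of 7670 kept genes (2.03%), and 1 member was lower in both. Genes lower in both were not counted over all kept genes. Some of the higher calls rest on few counts, such as *Arhgap26.1* with 0 in WT CON and 3 in WT FSK.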

How the results depend on the processing

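The deposited scale adds 1 to CP10K and so holds down differences of low genes. On linear CP10K with a pseudocount of 0.1 or 0.01 the rule was met by 419 and 537 genes in place of 130. With the 130 genes held, those higher in both genotypes numbered 43 and 47 in alpha, 52 and 54 in delta and 7 and 10 in endothelial cells, while the shares over all kept genes rose to 3.46% and 5.7%, 6.85% and 9.16%, and 4.37% and 6.29%. The medians were then 0.42 and 0.47 (WT) and 0.82 and 0.96 (mutant) in alpha cells, 0.86 and 0.93 (mutant) in delta cells, and -0.46 and -0.58 (WT) and 0.63 and 0.71 (mutant) in endothelial cells. In beta cells they were -0.39 and -0.41 after Ex-4 in WT, 0.0562 and 0.0585 in the mutant, and -0.59 and -0.66 between untreated mutant and WT. At a 2-fold threshold 41 genes met the rule, 7 of them higher in both genotypes in alpha, 8 in delta and 0 in endothelial cells. Their medians were 0.57 in mutant alpha and 0.47 in mutant endothelial cells, -0.17 after Ex-4 in WT beta cells and -0.25 between untreated mutant and WT. The mutant alpha median was 0.47 with the filter at the 75th percentile, and the WT alpha median 0.24 with the median of all genes set to 0. The mutant Ex-4 median was 0.0529 after rescaling without 14 genes. Besides ribosomal RNA linked and mitochondrial genes, these included the Mediator kinase gene *Cdk8* and the 7SK RNA gene *Rn7sk*. With the untreated mutant as the control of WT FSK, chosen after seeing the data, 482 genes met the rule. Both differences then share the mutant CON column, and the one of WT FSK mixes genotype with treatment. Of the 130 genes 41 were then higher in both in alpha (2.69% of all kept genes) and 7 in endothelial cells (2.13%), and the WT medians were 0.49 in alpha, 0.50 in delta and -0.0588 in endothelial cells. The WT Ex-4 median in beta cells changed sign, from -0.22 to 0.081. Of 112 recomputed values 70 stayed within 1.5 times the count, or within the order statistic interval of the median, 41 moved beyond it and 1 changed sign. The cause was not tested. Members were chosen again for the 2-fold threshold and with the excluded genes put back, and held elsewhere. No paired analysis was possible because each condition has 1 pooled value per cell type. Among the columns compared with beta cells depth limited the endothelial ones most, in which 1 count was worth up to 0.18 CP10K, and in PP columns it was worth up to 0.259.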
